A study of Mus musculus with 18 samples.

Results

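Day 3 neural precursors were compared with embryoid bodies taken 8 h after retinoic acid (RA) was added on day 2, to ask what follows the first hours of RA and which early RA genes have by then gone. The comparison rests on 5 of the series' 18 arrays, chosen by their labels: 3 of Day 3 (replicates 1, 2 and 3) and 2 of 8 h of RA (replicates 1 and 3). The 4 day 2 arrays, from embryoid bodies before RA, set the starting level.

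All arrays hold RNA of HBG3, a mouse embryonic stem (ES) cell line used for motor neuron differentiation that carries a fluorescent reporter driven by a motor neuron promoter. ES cells grown on feeder cells, then on gelatin, were dissociated on day 0 and left to aggregate in medium without added patterning factors. RA and a hedgehog agonist were added on day 2, so Day 3 embryoid bodies had received both. For the 8 h arrays the labels give RA alone as the treatment, and whether the agonist was present in those cultures is not settled by them. No array comes from embryoid bodies kept to Day 3 without RA, so effects of RA, of the agonist and of further time in culture cannot be told apart. Each array averages over whole embryoid bodies of 1 cell line, so that fewer cells of a type and less RNA per cell cannot be told apart either. Nothing in the labels says whether replicates were separate cultures. The study's methods describe biological replicates. The p-values here measure the spread between arrays within groups, pooled over all 18 arrays and 6 stages.

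RA enters cells, is carried by small binding proteins and acts through receptors (RAR with RXR partners) that sit on DNA at direct repeats of a short hexamer. In the embryo it switches on the Hox genes at the early-expressed end of each cluster, which give hindbrain and cervical spinal cord their position, and it helps epiblast cells leave pluripotency and become neural. Hedgehog signals then give the ventral neural tube its progenitor domains, among them the Olig2-positive cells from which motor neurons arise.

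Values are log2 signals of the authors' GCRMA normalization, and the values of the arrays are always given in the order replicate 1 then 3 for 8 h of RA and 1, 2 then 3 for Day 3. A log2 signal under 4 was taken as background. A gene, read from its brightest probe set, passed the test when limma's adjusted p was under 0.01 and the difference at least 2-fold. Where every array of the dimmer group was under background, a fold is a lower bound. Differences are Day 3 minus 8 h of RA on the log2 scale, with limma's standard error.

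Of 18193 genes 697 were called between Day 3 and 8 h of RA (3.83%), with 266 higher at Day 3 (1.46%) and 431 lower (2.37%), so that 61.8% of the called genes had fallen. Of the 266, 70 were under background on both RA arrays and over it on all Day 3 arrays, and of the 431, 165 went the other way, from over background on both RA arrays to under it on all Day 3 arrays. Group means differed by at least 4 log2 units in 41 genes that rose and 76 that fell. That count leaves values under background as they are, so some of these genes have a lower bound under 16-fold. The median difference over all genes was 0. Of the 18193 genes 6946 were under background on all 5 arrays, and the shares and the median over all genes include them. In every called gene the 2 groups of arrays did not overlap, which held for 35.6% of all genes. A further 12 called genes, 8 lower and 4 higher, were under background on all 5 arrays.

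The counts of called genes moved with the arrays used. With the spread taken from the 5 arrays alone, 17 genes were higher and 59 lower. Ednrb, Nr2f1, Hes5, Pou3f2, Tdgf1, Pou5f1 and Gli1 were among the genes whose calls were lost in that fit. The losses given for single genes below are those on leaving out 1 array. Without RA replicate 1 the counts were 121 and 222, and without RA replicate 3 they were 165 and 292. Leaving out 1 Day 3 array gave 187 to 214 higher and 294 to 353 lower.

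**Figure D1:**
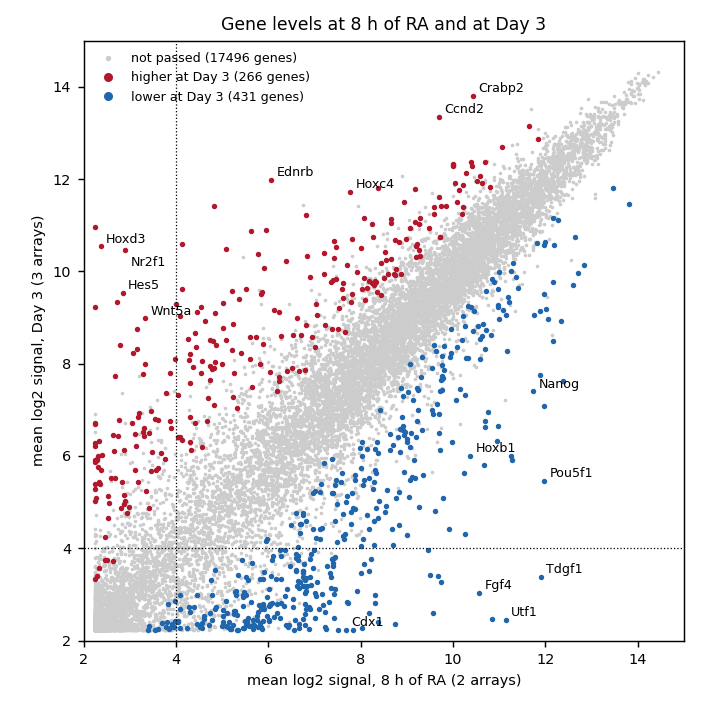
Mean log2 signal of each gene at 8 h of RA (2 arrays, x axis) and at Day 3 (3 arrays, y axis), with the 266 genes called higher at Day 3 in red, the 431 called lower in blue and all others in grey; dotted lines mark the background level of 4. Hoxd3, Nr2f1 and Hes5 lie far above the diagonal and Utf1, Tdgf1 and Fgf4 far below it.

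Day 3 replicate 3 stood apart from its group. Over probe sets, Day 3 replicates 1 and 2 correlated at 0.993 with each other and at 0.983 with replicate 3, and RA replicate 3 correlated at 0.975 with Day 3 replicate 3 and at 0.964 with each of the others. The summed signal of 11 feeder fibroblast genes was 8.68 and 8.40 (log2) on Day 3 replicates 1 and 2 and 11.75 on replicate 3, with 11.26 and 10.65 on the RA arrays. Acta2 and Tagln, both contractile genes, carried most of it, while the fibroblast collagen gene Col3a1 and Postn and Lum were at the lowest values on all 5 arrays. Hba-x, an embryonic globin gene, read 4.88, 5.99 and 9.87 at Day 3, and Adm, a hypoxia-responsive hormone gene, read 10.03, 10.98 and 2.24. The feeder sum also split the day 2 arrays. It was 8.87 and 9.06 on replicates 1 and 2 and 11.39 and 12.06 on replicates 3 and 4. Day 2 replicates 1 and 2 correlated at 0.992 with each other and at 0.967 to 0.977 with replicates 3 and 4. Day 3 replicates 1 and 2 lay on the low side of the feeder sum, and both RA arrays and Day 3 replicate 3 on the high side. This split therefore partly coincides with the comparison of Day 3 and 8 h of RA. The part of these differences in the results was not tested. With Day 3 replicate 3 left out, 214 genes were higher and 353 lower, and with it as the only Day 3 array, 124 and 157.

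Between 8 h of RA and day 2, 67 genes were called (0.368%), of which 56 were higher at 8 h (0.308%) and 11 lower (0.0605%). The test of Day 3 against 8 h divided the 56 into 3 groups. Of the 56, 23 were lower at Day 3 than at 8 h, 9 had risen further, and 24 did not pass the test in either direction. The RA arrays enter both comparisons, so a high reading on them raises the first difference and lowers the second, and the 23 are a description of these genes rather than a result read against the 2.37% of all genes that were lower. Against only day 2 replicates 3 and 4, which correlate best with the RA arrays, 34 genes were higher at 8 h, of which 16 were then lower and 5 higher at Day 3. Against day 2 replicates 1 and 2 the numbers were 71, 35 and 6.

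Of the 23 genes higher at 8 h than at day 2 and then lower at Day 3, 15 were over background on both RA arrays. Of those, 14 were under background on every Day 3 array. Cdx1, a caudal-type homeobox gene and known direct RA target, read between 2.24 and 2.28 on the 4 day 2 arrays, 7.67 and 7.69 at 8 h, and 2.24 on each Day 3 array. It was thus at or near the lowest value before, well over background at 8 h and at the lowest value again at Day 3. Its Day 3 level was at least 12.8-fold lower than at 8 h (limma, difference -5.45 ± 0.01, adjusted p = 2.67e-23). The small error reflects values that barely vary at the lowest level. Cdx2, a second caudal gene, read 6.66 and 7.12 at 8 h and 2.73, 2.91 and 2.51 at Day 3, at least 7.41-fold lower (limma, adjusted p = 0.0017), although its rise at 8 h did not pass.

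Genes that are not patterning factors also fell to under background by Day 3. Glra2, a glycine receptor subunit, read 6.80 and 6.51 at 8 h and 2.27, 2.27 and 2.26 at Day 3, and 2.27 to 2.39 at day 2. Kcnh1, a potassium channel, read 6.03 and 6.21 at 8 h and 2.86, 2.42 and 2.24 at Day 3. Fbp1, a gluconeogenic enzyme, read 7.58 and 6.94 at 8 h and 2.27, 2.25 and 2.27 at Day 3. All of them lost at least 4-fold from 8 h to Day 3: at least 6.31-fold in Glra2, 4.34-fold in Kcnh1 and 9.57-fold in Fbp1.

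Hoxb1, which in the embryo marks the fourth rhombomere of the hindbrain, fell without disappearing. It read 2.73 to 2.94 at day 2, 10.02 and 10.74 at 8 h, and 5.04, 5.45 and 7.51 at Day 3, a 20.8-fold fall (limma, difference -4.38 ± 0.70, adjusted p = 0.00218). Day 3 replicate 3 was the highest of the 3, and all stayed over the day 2 arrays (Day 3 minus day 2, 3.19, adjusted p = 0.0035). The call of its fall was lost without either RA array and without Day 3 replicate 1 or 2, with adjusted p up to 0.0271, and with replicate 3 left out it was 0.000336. Hoxa10, the other Hox gene in this class, read 5.34 and 5.57 at 8 h and 2.28, 2.28 and 2.24 at Day 3. Only 1 of its 2 probe sets moved, and the other was at the lowest value in both groups.

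Wnt8a, Nr0b1, Fbp1 and Nlrp4f went below where they had started. Nr0b1, the nuclear receptor Dax1 of the pluripotency network, read 5.80 to 6.51 at day 2, 8.69 and 8.78 at 8 h, and 2.24, 2.41 and 2.40 at Day 3, at least 26.6-fold lower than at 8 h (limma, adjusted p = 3.28e-07). Wnt8a, a Wnt ligand, read 6.37 to 6.60 at day 2, 7.59 and 8.06 at 8 h, and 2.24 on each Day 3 array, at least 14.2-fold lower. Of the 15, these 4 were also lower at Day 3 than at day 2, Hoxb1 was higher and 10 did not pass that comparison, in which 3.40% of all genes were higher and 3.22% lower. Cpvl, Izumo1r, Amhr2, Sowaha, Ncmap and Ccdc88b completed the 15. Their RA levels lay between 4.55 and 6.18 and their differences ran from -2.18 in Ccdc88b to -3.26 in Cpvl. The Amhr2 call came from 1 of its 3 probe sets. Its other probe sets, with means under background in both groups, differed by -1.11 and 9.78e-06 and were not called. The remaining 8 of the 23 (Fndc1, Tbxa2r, Upb1, Nat1, Gtsf1, Apobr, Cd14 and Art1) had at least 1 RA array under background, and their differences are small: from -1.03 in Cd14 to -1.61 in Gtsf1. Among them the calls of Art1, Cd14 and Fndc1 were lost without RA replicate 1, and those of Cd14 and Fndc1 also without Day 3 replicate 1 or 2 (limma, adjusted p up to 0.162 for Cd14, 0.0483 for Fndc1 and 0.0194 for Art1). With all values raised to the background level, the number of early genes called lower was 14 instead of 23.

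**Figure D2:**
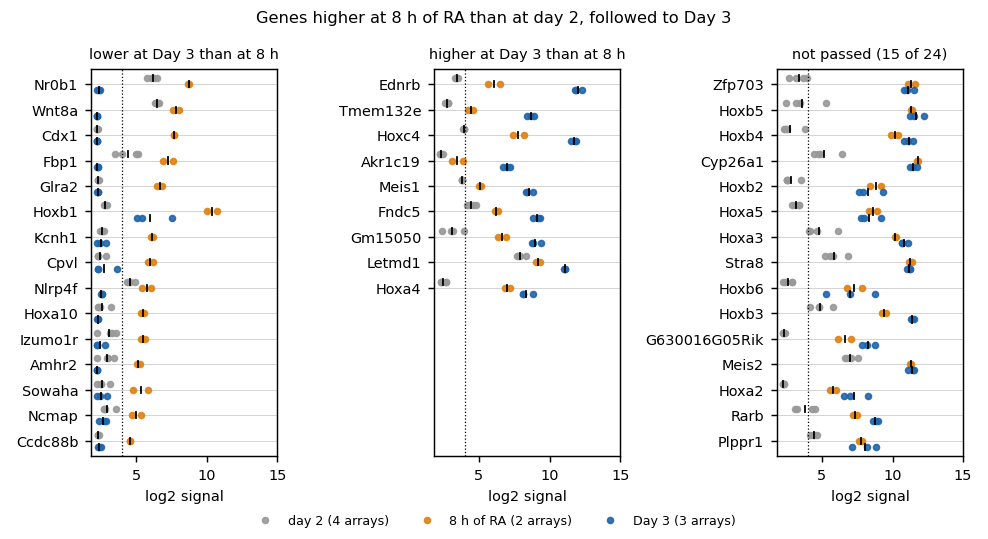
Log2 signal of early RA genes on each array (points) with group means (black bars) at day 2 (grey, 4 arrays), 8 h of RA (orange, 2 arrays) and Day 3 (blue, 3 arrays); the dotted line marks background. The left panel holds the 15 genes that were over background on both RA arrays and lower at Day 3. Their Day 3 points lie under background except in Hoxb1. The middle panel holds the 9 that rose further. The right panel holds the 15 of the 24 others with the largest rise at 8 h. Day 3 points there mostly lie near or just beyond the orange ones.

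The 9 early genes that rose further were led by Ednrb, an endothelin receptor, which read 3.30 to 3.54 at day 2, 5.61 and 6.50 at 8 h, and 11.81, 11.90 and 12.26 at Day 3, a 61.3-fold step after 8 h (limma, difference 5.94 ± 0.21, adjusted p = 5.81e-09). Tmem132e (19.0-fold), Akr1c19 (at least 7.82-fold), Fndc5 (7.39-fold), Gm15050 (5.18-fold) and Letmd1 (3.73-fold) rose as well. Meis1, a Hox co-factor, went from 5.0 and 5.14 to 8.36, 8.35 and 8.80, a 10.8-fold rise. The 2 Hox genes among the 9 were Hoxc4 and Hoxa4. The Gm15050 call was lost without any 1 of the 5 arrays (adjusted p 0.0143 to 0.0586), and the Hoxa4 call without RA replicate 3 (adjusted p = 0.022).

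The 24 early genes that did not pass included 8 Hox genes. The median difference of the 24 was 0.16, and 17 of them were within 1 log2 unit of their 8 h level. At Day 3, 22 were still called higher than at day 2. Kit and Greb1l were not, and differed from 8 h by -1.89 (limma, adjusted p = 0.0283) and -1.17 (adjusted p = 0.111). The dimmer probe set of Kit was called lower than at 8 h (limma, -1.59, adjusted p = 0.00363). All 24 were chosen as higher at 8 h than the same day 2 arrays. The 22 are thus a description, not read against the 3.4% of all genes higher at Day 3 than at day 2. Cyp26a1, the enzyme that breaks RA down and a classical RA target, read 4.40 to 6.44 at day 2, 11.76 and 11.80 at 8 h, and 11.47, 11.23 and 11.73 at Day 3. Its Day 3 arrays all lay just under the RA arrays, a difference (-0.30 ± 0.63) smaller than its error. Cyp26a1 read 10.97, 10.66 and 10.75 on the 3 Day 4 arrays and was under background on the 3 Day 7 arrays. Stra8, the RA-induced gatekeeper of meiosis in germ cells, read 11.36 and 11.16 at 8 h and 11.24, 11.03 and 11.23 at Day 3. Rec8, a meiotic cohesin gene, read 9.30 and 9.59 and then 9.53, 9.23 and 10.40. Stra8 was lower on Day 4 (6.59, 6.54 and 8.38; limma, Day 4 minus Day 3, adjusted p = 0.000429). Zfp703, a transcriptional repressor, held at 11.11 and 11.57 and then 10.82, 11.01 and 11.54.

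The promoters of Cyp26a1 and Rarb are shown because, among the 41 of the 56 early genes with an entry in the promoter table, they alone carry an RAR-type direct repeat in the window read, and both were still high at Day 3. The search took any pair of the hexamer AGGTCA or its variants (AGTTCA as well as GGTTCA and also GGGTCA) in the same direction, 5 or 2 bases apart, on either strand, from 250 bases before to 50 bases after the start of the RefSeq transcript (GRCm38.p6). Such a repeat was found in 25 of 14452 genes of the arrays with an entry (0.173%), in 2 of these 41, in 1 of the 190 genes with an entry that were higher at Day 3 (Casd1) and in 1 of the 338 that were lower (Slc7a7). The 250 bases before each start follow, 5′ to 3′ on the gene's strand, with the repeat in capitals. Cyp26a1 lies on the plus strand (chr19:37697558-37697807), and its repeat reads on the opposite strand. Rarb lies on the minus strand (chr14:16575477-16575726).
Cyp26a1: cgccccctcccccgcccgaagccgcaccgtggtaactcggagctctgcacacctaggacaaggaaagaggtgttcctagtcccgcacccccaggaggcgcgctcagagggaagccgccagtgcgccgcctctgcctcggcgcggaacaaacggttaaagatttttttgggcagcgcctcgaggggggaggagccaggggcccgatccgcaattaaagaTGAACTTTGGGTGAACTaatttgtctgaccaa
Rarb: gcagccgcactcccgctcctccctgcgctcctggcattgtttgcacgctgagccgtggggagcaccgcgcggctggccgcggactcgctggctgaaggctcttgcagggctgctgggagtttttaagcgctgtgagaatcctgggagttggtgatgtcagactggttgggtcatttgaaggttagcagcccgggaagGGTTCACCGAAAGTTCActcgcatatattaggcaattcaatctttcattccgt
In both, the hexamers are 5 bases apart. A match in letters is a description and does not show that a receptor was bound. The study names Rarb and Cyp26a1 among genes whose RA response elements were already known. The search included the hexamers of these 2 repeats, GGTTCA and AGTTCA, so the 2 of 41 is not read against the share over all genes.

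Of the 11 genes lower at 8 h than at day 2, 8 fell further by Day 3 and 1 rose back. Over all genes 2.37% were lower at Day 3 than at 8 h and 1.46% higher. The RA arrays enter both comparisons here too, so these counts are a description. Otx2, the forebrain and epiblast homeobox gene, read 9.25 to 9.89 at day 2, 5.89 and 4.65 at 8 h, and 2.55, 2.78 and 2.57 at Day 3. Fgf5, an epiblast growth factor gene, read 8.92 to 9.41, then 5.32 and 6.01, then 2.38, 2.39 and 2.24. The others that fell further were Fgf4, Cbr3, a carbonyl reductase (7.35 and 7.43, then 3.54, 3.50 and 4.01), Calcr, the calcitonin receptor (at least 2.50-fold), Enc1 (2.16-fold), Cdc42ep5 and Far2. Mycn, a proliferation-promoting transcription factor, took the opposite course, from 11.69 to 12.44 at day 2 to 10.00 and 10.78 at 8 h and back to 12.37, 12.36 and 12.41 (limma, Day 3 minus 8 h, 1.99 ± 0.27, adjusted p = 0.000686). The Otx2 call was lost without RA replicate 1 or any 1 Day 3 array (adjusted p up to 0.143), the Mycn call without RA replicate 1 (adjusted p = 0.0138), the Enc1 call without RA replicate 3 (adjusted p = 0.0129) and the Cdc42ep5 call without any 1 array (adjusted p 0.0263 to 0.121).

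Of 15 anterior Hox genes measured, 4 were higher at Day 3 (Hoxd3, Hoxc5, Hoxc4 and Hoxa4), Hoxb1 was lower and 10 did not pass, with a median difference of 0.60 against 0 over all genes. Hoxd3 was the gene with the steepest rise of the clusters: it was under background on both RA arrays (2.46 and 2.27) and read 10.85, 10.57 and 10.20 at Day 3, at least 93.2-fold higher (limma, difference 8.18 ± 0.31, adjusted p = 1.17e-08). Hoxc4 went from 8.18 and 7.38 to 11.79, 11.89 and 11.48, a 15.4-fold rise. Hoxc5 went from 4.40 and 4.21 to 7.90, 7.31 and 9.40 (14.9-fold), and 1 of its 3 probe sets was called. Hoxa4 went from 7.17 and 6.85 to 8.12, 8.09 and 8.85 (2.55-fold).

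Of the HoxB genes other than Hoxb1, none passed in its brightest probe set. Hoxb5 read 11.35 and 11.30 at 8 h and 11.49, 11.23 and 12.19 at Day 3, and Hoxb4 read 9.91 and 10.42 and then 11.12, 10.80 and 11.47. Hoxb2 read 8.39 and 9.20 and then 7.87, 7.63 and 9.32, with the groups overlapping. Hoxb3 (2.00, limma adjusted p = 0.057) and Hoxa2 (1.48, adjusted p = 0.083) missed the threshold although their arrays did not overlap between the groups. The dimmer second probe set of Hoxb3 was called higher (limma, 1.53, adjusted p = 0.00548). Hoxc6 and Hoxd1 were under background on all 5 arrays. Of 18 measured posterior Hox genes, which mark thoracic to caudal levels, none was higher and Hoxa10 was lower; 14 were under background on all 5 arrays. Hoxc8 (2.73 and 2.44, then 5.87, 6.28 and 4.24) and Hoxd8 (2.93 and 3.06, then 5.94, 5.84 and 5.79) crossed background without passing (limma, adjusted p = 0.249 and 0.0981).

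Of 15 measured co-factors of Hox proteins and further regulators of position, 4 were higher (Meis1, Meis3, Tshz3 and Tshz2) and Cdx1 and Cdx2 lower. Meis2, a co-factor raised early, stayed at 11.30 and 11.25 and then 11.55, 11.42 and 11.09. Tshz3, a teashirt zinc finger gene of the trunk, went from 9.24 and 9.32 to between 10.96 and 11.48 (3.65-fold). The Meis3 call was lost without any 1 array (adjusted p 0.0154 to 0.0477), the Tshz3 call without RA replicate 1 (adjusted p = 0.0154) and the Cdx2 call without either RA array (adjusted p up to 0.0201).

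Several genes that belong to no list rose from background. Nr2f1, the orphan receptor COUP-TFI of the early nervous system, read 2.39 and 3.40 at 8 h and 10.10, 10.05 and 11.23 at Day 3, at least 88.1-fold higher (limma, adjusted p = 3.59e-08). Its paralog Nr2f2 read 3.65 and 4.35 and then 8.57, 8.70 and 10.61, with Day 3 replicate 3 the highest for both. The greatest rise over all genes was that of ccdc198, from 2.24 on both RA arrays to 11.51, 11.51 and 9.86. Cltrn, an amino acid transporter partner, rose at least 37.5-fold, Maob, a monoamine oxidase, at least 26.9-fold, and Col4a5, a basement membrane collagen chain, at least 21.2-fold. Mir124-2hg, the host transcript of a neuronal miRNA, went from 3.51 and 4.75 to 10.63, 10.60 and 10.57 (88.5-fold). The Nr2f2 call was lost without any 1 array (adjusted p 0.0149 to 0.0872) and the Col4a5 call without RA replicate 1 (adjusted p = 0.0119).

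In retinoid metabolism, 2 of 13 genes were higher and none lower. Crabp2, which delivers RA to its receptors, went from 10.41 and 10.45 to 13.78, 13.75 and 13.89, a 10.4-fold rise (limma, difference 3.37 ± 0.28, adjusted p = 1.21e-05). Aldh1a2, the main RA-making enzyme of the embryonic trunk, went from under background (2.85 and 3.38) to 6.60, 6.87 and 5.98, at least 5.59-fold. Dhrs3, which turns retinal back into retinol, read 10.20 and 9.98 and then 8.47, 8.18 and 9.63 without passing (limma, adjusted p = 0.453). Crabp1 (2.15, adjusted p = 0.032) and the retinol transporter gene Stra6 (2.08, adjusted p = 0.0361) also missed the threshold. The Aldh1a2 call was kept only with Day 3 replicate 3 left out among the fits without 1 array (adjusted p 0.00633 to 0.0564).

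Among the 10 receptor and co-regulator genes, Rxra was higher and Rarg lower. Rarg read 6.75 and 6.78 at 8 h and 3.66, 3.67 and 3.67 at Day 3, at least 6.80-fold lower (limma, difference -3.10 ± 0.35, adjusted p = 0.000168). Rxra read 6.94 and 7.18 and then 8.98, 9.31 and 8.89 (3.99-fold). Rarb, already raised at 8 h, read 7.45 and 7.17 and then 8.61, 8.96 and 8.79, a difference of 1.48 ± 0.41 that missed the threshold (adjusted p = 0.0599). All Day 3 arrays lay over the RA arrays for Rarb, and Rara was under background on all but 1 array. The co-repressor gene Nrip1, an early RA gene, read 10.98 and 11.54 and then 10.90, 11.18 and 11.76.

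The 4 greatest falls over all genes were those of Utf1, Tdgf1, Lefty1 and Fgf4, members of the pluripotency list. Of 25 measured genes of this list 13 were lower and none higher, with a median difference of -3.27 against 0 over all genes. Utf1, a chromatin factor of ES cells, read 11.08 and 11.19 at 8 h and 2.28, 2.30 and 2.76 at Day 3, at least 141-fold lower (limma, difference -8.69 ± 0.30, adjusted p = 3.23e-09). Tdgf1, the Nodal co-receptor Cripto, read 12.20 and 11.60 and then 3.31, 3.82 and 3.01, at least 239-fold lower. Fgf4, the autocrine growth factor of ES cells, read 10.62 and 10.51 and then 3.18, 2.78 and 3.14, at least 94.7-fold lower. At 8 h Utf1 was 1.03-fold and Tdgf1 1.47-fold from its day 2 mean, neither called, while Fgf4 was 2.54-fold lower and called.

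Of the core factors, Pou5f1 and Nanog were lower and Sox2 did not pass. Pou5f1 (Oct4) read 12.52 and 11.43 at 8 h and 6.57, 5.92 and 3.91 at Day 3, 91.1-fold lower (limma, difference -6.51 ± 0.60, adjusted p = 2.96e-05), and was at 2.50 on each Day 4 array. Nanog read 11.85 and 11.64 and then 8.36, 7.25 and 6.59, 20.3-fold lower and well over background on every array. Sox2, shared by ES cells and neural precursors, read 10.97 and 11.64 and then 11.75, 11.84 and 12.24, and Sall4 stayed between 13.17 and 13.40 on all 5 arrays. Lefty1 (at least 115-fold), Lefty2 (at least 45.5-fold), Dppa4 (24.8-fold), Zfp42 (9.62-fold), Dppa5a (6.44-fold) and Klf2 (3.41-fold) made up the rest of the 13 with Nr0b1 and Gdf3, which read 9.73 on both RA arrays and 3.30, 2.38 and 4.13 at Day 3, with 1 Day 3 array over background. Platr10, a noncoding transcript of ES cells, fell at least 47.3-fold, Vrtn at least 51.3-fold, Epp13 at least 20.9-fold, Mal2 at least 18.2-fold, Tmem54 at least 16.4-fold and the amino acid transporter gene Slc7a7 61.8-fold.

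**Figure D3:**
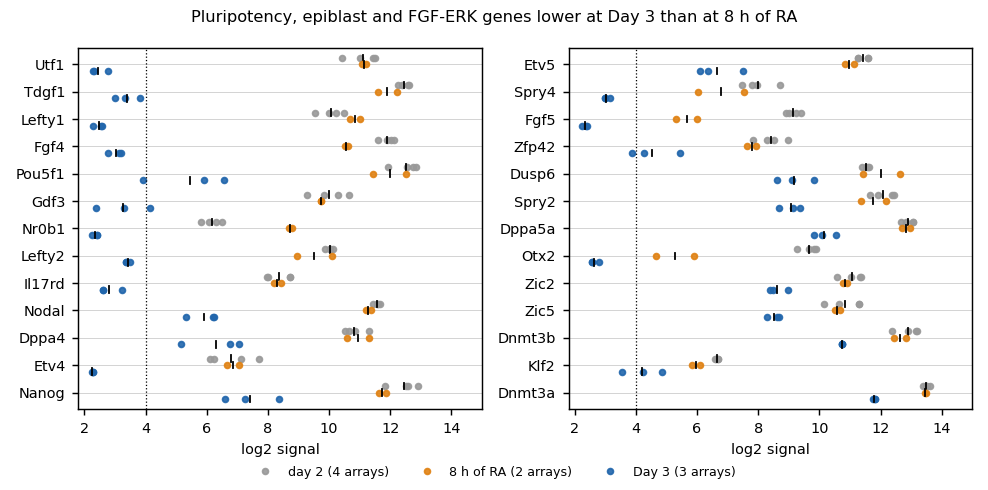
Log2 signal of the 26 called genes of the pluripotency, primed epiblast and FGF-ERK lists on each array (points) with group means (black bars) at day 2 (grey, 4 arrays), 8 h of RA (orange, 2 arrays) and Day 3 (blue, 3 arrays); the dotted line marks background. Grey and orange points lie close together for most genes and all blue points lie to their left; Fgf4, Fgf5 and Otx2 were already called lower at 8 h than at day 2.

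Of 11 genes of the primed epiblast, the state between ES cells and the germ layers, 7 were lower and none higher, with a median of -2.19. Nodal, the ligand that holds the epiblast, read 11.21 and 11.36 at 8 h and 6.20, 5.32 and 6.23 at Day 3, 41.3-fold lower (limma, difference -5.37 ± 0.24, adjusted p = 4.45e-08). The de novo DNA methyltransferases were also lower. Dnmt3b read 12.45 and 12.83 and then 10.75 on each Day 3 array (3.70-fold), and its dimmer probe set differed by more (limma, -4.39, adjusted p = 0.000337). Dnmt3a read 13.44 and 13.49 and then 11.82, 11.81 and 11.76 (3.18-fold). Zic2 (4.64-fold), Zic5 (4.15-fold), Fgf5 and Otx2 were the others. The Zic2 and Zic5 calls were lost without any 1 array (adjusted p 0.0142 to 0.0663 and 0.0204 to 0.0638), and the Dnmt3b call without either RA array (adjusted p up to 0.0247).

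Of 15 ligands and targets of FGF-ERK signalling, which keeps ES cells able to differentiate, 6 were lower and none higher, with a median of -1.59. Etv4 and Etv5, transcription factors induced by ERK, read 7.06 and 6.67 at 8 h and 2.24, 2.27 and 2.27 at Day 3 (Etv4, at least 7.31-fold lower), and 10.83 and 11.13 and then 7.50, 6.36 and 6.11 (Etv5, 20-fold lower). The feedback inhibitors Il17rd (at least 19.8-fold), Dusp6 (7.15-fold), Spry4 (at least 6.91-fold) and Spry2 (6.52-fold) were lower on all Day 3 arrays. Spry1, another inhibitor, read 6.99 and 7.00 and then 4.19, 3.49 and 4.30, and just missed the threshold (limma, adjusted p = 0.01). The Dusp6, Spry4 and Spry2 calls were lost without RA replicate 3 (adjusted p = 0.0258, 0.0203 and 0.0106).

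Of 20 neural progenitor genes 9 were higher and none lower, with a median of 1.77. Hes5, a Notch effector of neural stem cells, was under background at 8 h (2.44 and 3.25) and read 9.09, 9.45 and 10.06 at Day 3, at least 46.3-fold higher (limma, difference 6.69 ± 0.41, adjusted p = 8.45e-07). The POU factor Pou3f2 (Brn2) went from 4.35 and 5.30 to 11.50, 11.75 and 11.02, a 96.9-fold rise, and Pou3f3 from under background to 7.42, 8.02 and 8.56. Zbtb16 (PLZF, 44.6-fold) and Sox21 (42.0-fold) were the next. Genes that were already bright rose by less: Cdh2, the cadherin of the neural tube (6.09-fold), Ncam1 (4.94-fold), Sox1, the first neural-specific Sox gene (3.67-fold), and Notch1 (3.45-fold).

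Pax6, a transcription factor of the progenitor zone, read 6.70 and 6.80 at 8 h and 11.35, 11.40 and 11.59 at Day 3. The groups were far apart, yet the difference of 4.70 ± 1.09 did not pass (limma, adjusted p = 0.026). Of its 4 dimmer probe sets 2 were called higher (limma, 5.14, adjusted p = 0.000188, and 2.80, adjusted p = 0.00103). The error is pooled over all 6 stages, and the SD of Pax6 was 0.07 and 0.12 in these groups but 2.07 in ES cells on day 0 and 1.76 on Day 7. Prom1 (1.20, adjusted p = 0.013), Plagl1 (1.76, adjusted p = 0.014), Msi1 (1.17) and Vim (1.02) were higher on every Day 3 array without passing. Nes, Sox3 and Fabp7 did not pass, with differences of 1.02, 0.54 and -0.23. The Cdh2 call was lost without any 1 array (adjusted p 0.0193 to 0.0795), the Ncam1 call without any but Day 3 replicate 3 (adjusted p up to 0.0564), the Sox1 call without RA replicate 3 (adjusted p = 0.0207) and the Notch1 call without RA replicate 1 (adjusted p = 0.0337).

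**Figure D4:**
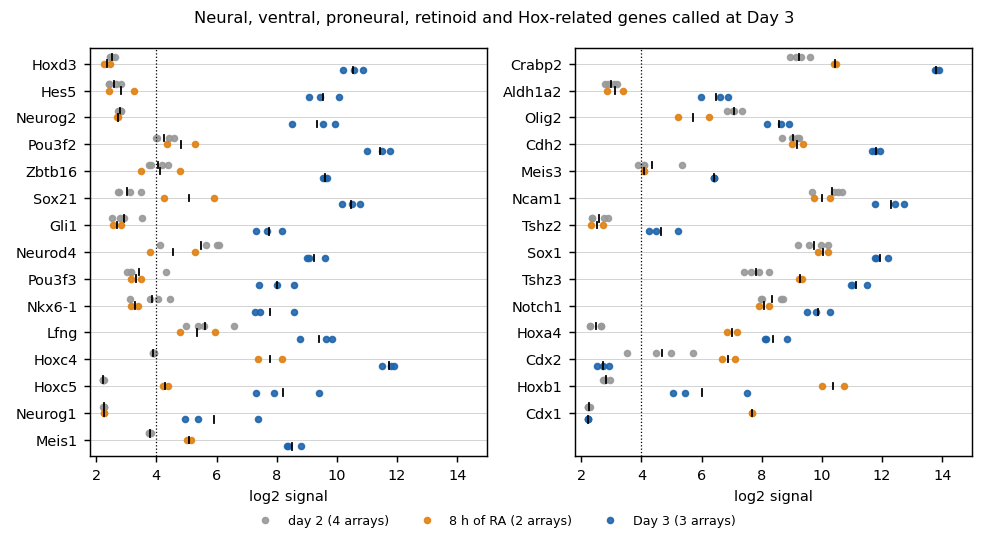
Log2 signal of the 29 called genes of the neural progenitor, ventral, proneural, retinoid metabolism, anterior Hox and Hox co-factor lists on each array (points) with group means (black bars) at day 2 (grey, 4 arrays), 8 h of RA (orange, 2 arrays) and Day 3 (blue, 3 arrays); the dotted line marks background. In 26 genes the blue points lie to the right of the orange points, and in Cdx2, Hoxb1 and Cdx1 to their left.

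Of 17 measured ventral progenitor and hedgehog genes, Gli1, Nkx6-1 and Olig2 were higher and none lower, with a median of 1.01. Gli1, a direct read-out of the pathway, was under background at 8 h (2.55 and 2.81) and read 8.19, 7.32 and 7.68 at Day 3, at least 13.3-fold higher (limma, difference 5.05 ± 0.56, adjusted p = 0.000143). Nkx6-1, a ventral homeobox gene, read 3.40 and 3.17 and then 8.56, 7.29 and 7.45 (at least 13.6-fold). Olig2, which marks motor neuron progenitors, read 6.83 to 7.34 at day 2, 5.21 and 6.24 at 8 h, and 8.63, 8.91 and 8.19 at Day 3, 7.22-fold higher than at 8 h. Its Day 3 level did not pass against day 2 (1.51, adjusted p = 0.07), and the call was lost without any 1 array (adjusted p 0.0163 to 0.144).

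The receptor gene Ptch1, itself a target, read 11.91 and 11.48 and then 13.62, 13.83 and 13.10, and missed the threshold (limma, 1.82, adjusted p = 0.017). The ligand gene Shh was at 2.45 on all 5 arrays, and Nkx2-2, of the most ventral progenitors, was between 2.27 and 2.37. Of 16 dorsal and intermediate genes none passed, and 10 were under background on all 5 arrays. Dbx1, of the intermediate neural tube, came closest: it was at 2.24 on both RA arrays and read 5.15, 5.62 and 8.79 at Day 3 (limma, 4.29, adjusted p = 0.012), with replicate 3 the highest.

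Of 17 proneural and Notch pathway genes, Neurog2, Neurod4, Lfng and Neurog1 were higher and none lower, with a median of 0.64. Neurog2, a motor neuron proneural gene, read 2.73 and 2.70 at 8 h and 8.52, 9.55 and 9.94 at Day 3, at least 40.3-fold higher (limma, difference 6.62 ± 1.21, adjusted p = 0.00585). Neurog1 went from 2.25 on both RA arrays to 5.39, 4.96 and 7.38. Lfng, which modifies Notch receptors, went from 4.77 and 5.96 to 9.62, 9.82 and 8.79 (16.5-fold), and Neurod4 from 3.79 and 5.28 to 9.06, 9.60 and 9.01 (25.7-fold). The Neurog2 call was lost without any 1 array (adjusted p 0.0133 to 0.0555), the Neurog1 call without either RA array (adjusted p up to 0.0173) and the Neurod4 call without RA replicate 1 (adjusted p = 0.0277).

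Among 10 motor neuron genes none was higher, and Isl1, Lhx3, Isl2, Chat and Slc18a3 were under background on all 5 arrays. Mnx1, whose promoter drives reporters of motor neurons, read 2.37 and 2.54 and then 3.48, 4.04 and 2.54. The 1 member that passed was lower: Prph, an intermediate filament gene of peripheral and motor neurons, read 8.57 and 8.10 and then 5.04, 5.24 and 4.36. Among 14 pan-neuronal genes Tubb3, the neuronal tubulin, was the one that passed, and it was lower, with 8.70 and 8.06 at 8 h and 4.12, 4.60 and 5.25 at Day 3 (13.2-fold). Stmn3, a tubulin-binding protein gene, read 9.16 and 8.46 and then 11.01, 11.31 and 10.48 without passing (limma, adjusted p = 0.017). The Prph call was lost without any 1 array (adjusted p 0.0211 to 0.103) and the Tubb3 call without any but Day 3 replicate 3 (adjusted p up to 0.0623).

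Of 17 Wnt ligands and targets, Wnt5a was higher and Wnt8a lower. Wnt5a, a ligand of the noncanonical pathway, read 2.91 and 3.75 at 8 h and 9.01, 8.63 and 9.31 at Day 3, at least 31.7-fold higher (limma, adjusted p = 3.64e-07). The Wnt target Axin2 read 8.23 and 9.22 and then 8.01, 8.49 and 8.82. Of 15 genes of the BMP, Nodal and TGF-beta pathway, Id1, Id2 and Id3, BMP-induced inhibitors of differentiation, were higher and none lower. Id3 had been 4.79-fold lower at 8 h than at day 2 without passing, and went from 5.57 and 5.46 to 9.58, 9.20 and 10.09, a 17.2-fold rise (limma, adjusted p = 5.12e-05). The Id1 and Id2 calls were lost without any 1 array (adjusted p 0.0206 to 0.0702 and 0.0109 to 0.0434).

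Of 18 cell cycle genes Ccnd2, a D-type cyclin, passed: it read 9.41 and 9.98 at 8 h and 13.38, 13.27 and 13.41 at Day 3, 12.6-fold higher, in a call that was lost without any 1 array (adjusted p 0.02 to 0.0818). Mki67, Top2a and Pcna did not pass, with differences of 0.72, -0.11 and -0.04. Mael and Sycp1, germ line genes, were lower together with Gtsf1 among 13 meiosis and germ cell genes, of which Stra8 and Rec8 have been given above. Mael read 9.18 and 8.92 and then 4.30, 4.97 and 6.06, a call lost without RA replicate 1 (adjusted p = 0.013).

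Of 20 primitive streak, mesoderm and endoderm genes, Mixl1 (6.54 and 7.58, then 3.08, 3.08 and 3.67) and Eomes (4.74 and 5.41, then 2.47, 2.25 and 2.24) were lower and none higher, and 11 were under background on all 5 arrays. Both calls were lost without RA replicate 3 (adjusted p = 0.0294 and 0.0271). None of 12 forebrain and midbrain, 10 extraembryonic endoderm, 9 neural crest and glia or 20 stress and hypoxia genes passed in either direction. Epcam, an adhesion protein of ES cells and epithelia, was the called gene of 8 on the surface ectoderm list, with 12.12 and 12.21 and then 8.70, 8.65 and 8.11. Thy1 of the feeder list (at least 3.69-fold) and Myh6 and Pecam1 of the cardiac, blood and endothelium list were lower, and Pecam1, also an ES cell surface protein, read only 4.15 and 4.87 at 8 h. Those 3 calls were lost without RA replicate 1 (adjusted p = 0.0135 for Thy1) or without any 1 array (adjusted p 0.0164 to 0.068 for Myh6 and 0.0283 to 0.0955 for Pecam1).

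For Hoxa10, Cdx2, Neurog1, Pou3f3, Lfng, Rxra, Sox1, Spry2, Prph, Kcnh1, Fgf5, Tmem132e, Tshz2, Myh6, Fndc1 and Art1, the call came from 1 probe set, and the differences of the gene's other probe sets lay between -0.16 and 0.15. Those other probe sets had means under background in both groups, so their small differences say little about the calls either way.

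**Figure D5:**
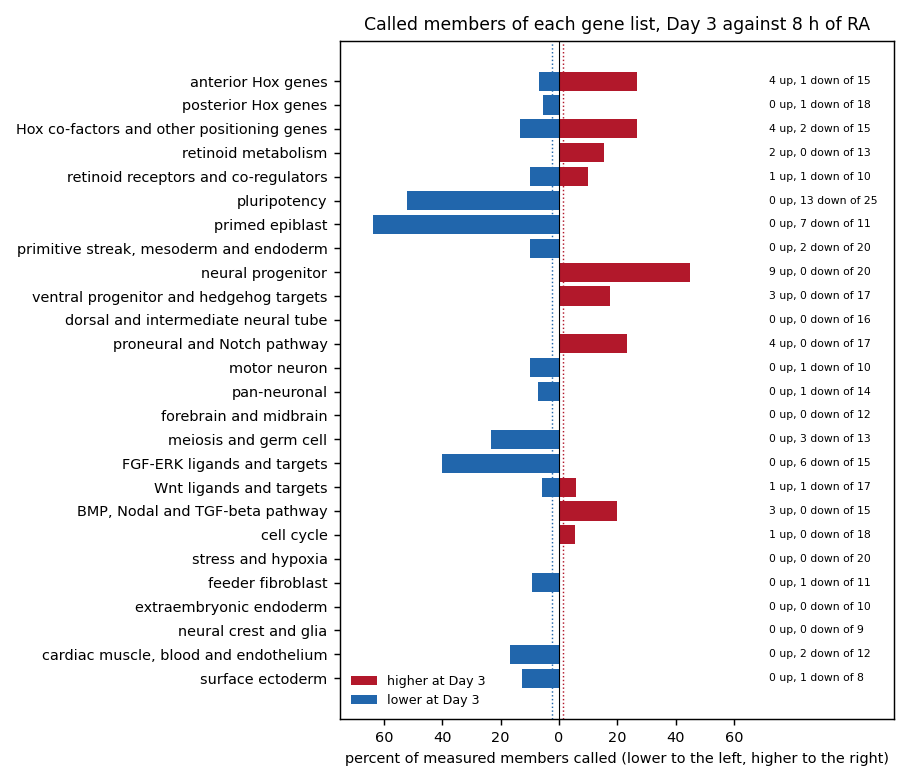
Percent of the measured members of each of the 26 gene lists called higher (red, to the right) or lower (blue, to the left) at Day 3 than at 8 h of RA, with the counts at the right; dotted lines mark the shares over all genes, 1.46% higher and 2.37% lower. The longest blue bars are those of the primed epiblast (7 of 11), pluripotency (13 of 25) and FGF-ERK (6 of 15) lists, and the longest red bar is that of the neural progenitor list (9 of 20).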

How the data were processed

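RNA of HBG3 cells was amplified, labelled and hybridized to Affymetrix mouse expression arrays. The authors deposited 1 log2 signal for each probe set and array, obtained by GCRMA (sequence-based background correction, quantile normalization and probe summary); GCRMA and limma are named in the submitters' processing notes. Tool versions are not given in the sources used here. GCRMA compresses signals near the lowest value (2.24), where errors and p-values can be too small, and 55.2% to 56.9% of probe sets lay under log2 4 on each array.

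Of 45101 probe sets 64 controls were left out. Of the 45037 others, 34945 carry 1 gene symbol, 932 several and 9160 none. Entrez identifiers matched for 34741. A gene's value is its brightest probe set by mean over all arrays, giving 18193 genes. 0 columns of other samples were present. limma 3.58.1 (R 4.3.3, package data.table at version 1.17.8) fitted 6 group means to all 18 arrays (12 residual and 0.515 prior degrees of freedom), with Benjamini-Hochberg adjustment over all 45037 probe sets. The number of arrays limits the precision. The fit was tested on simulated data. Among called genes over background on every array of the brighter group, the 15 that rose and the 15 that fell most are named, with up to 6 called members per list, members of the retinoid, anterior Hox and neural progenitor lists that did not pass, and early RA genes called again; Ptch1, Spry1, Dbx1, Stmn3, Hoxc8, Hoxd8, Axin2, the other members of lists given as not passed, and the markers of Day 3 replicate 3 were chosen after their values were seen. Members and lists were chosen with earlier results of these data known. Sequences are RefSeq's (GRCm38.p6). Figures were drawn in Python 3.11.15 (matplotlib 3.10.9). Alternatives tried were the 2 groups alone, a replicate block, trend and robust options, filters on dim probe sets, other normalizations and probe set rules, an adjusted p of 0.05 and leaving out each array.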

Additional observations from a re-analysis of the deposited data

Results flagged for a closer look

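In 12 of the 67 early genes, 1 of the 4 day 2 arrays was flagged by Dixon's test, which sets the gap to the nearest array against the range. Where the other 3 arrays are tied or nearly so, even a very small gap is flagged. The nominal rate of about 1 in 20 by chance does not apply there. Arg1, for example, read 2.243 on the flagged array and 2.235 on the other 3. In log2 signal the flagged values were, on day 2 replicate 1, Arg1 at 2.24, Hoxa10 at 3.21, Ncmap at 3.54, Tmem132e at 2.58 and Tradd at 7.18. On replicate 2 they were Cdx1 at 2.28 and Cpvl at 2.89, on replicate 3 Cd14 at 2.70, Hoxb2 at 3.54, Hoxb4 at 3.80 and Nat1 at 2.64, and on replicate 4 Tbxa2r at 2.40. All but Tradd are under the background level of 4 on all day 2 arrays. Tradd lay between 7.41 and 7.43 on the other day 2 arrays. None of the arrays of 8 h of RA or Day 3 could be tested in this way, since those groups hold fewer than 4 arrays.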

How the results depend on the processing

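No called result changed its direction under any of the alternatives run. Several of them, such as the 2 groups alone and the trend and robust options, leave the difference of group means unchanged. Direction could not change in those. With values raised to the background level, Fndc1, Gtsf1, Nat1, Tbxa2r and Upb1 differed by 0. In the fit to the 5 arrays alone, 94 of the 166 results followed by gene were weaker. With the spread taken from the 5 arrays alone, 17 genes were higher at Day 3 than at 8 h of RA and 59 lower, against 266 and 431; of the early RA genes 7 were lower and 0 higher, by limma, against 23 and 9 (at an unadjusted p under 0.05, 833 of all genes were higher and 1321 lower in the fit to all arrays); and of the list members 5 were higher and 11 lower, against 32 and 43. This fit has fewer arrays from which to estimate the spread. At an adjusted p under 0.05 the counts over all genes were 436 and 690. With values raised to background, 14 early genes were lower. Leaving out 1 array gave 121 to 214 genes higher, 222 to 353 lower, 19 to 23 early genes lower, 7 to 8 higher, 19 to 27 list members higher and 29 to 39 lower, lowest without RA replicate 1 except for the early genes that rose (7 without RA replicate 3). Of the 111 called genes followed gene by gene through these fits, 70 kept their call without any 1 array. Nanog, Dnmt3a, Dppa4, Zfp42, Dppa5a and Klf2, called above, were not among the 111, so no such result is given for them. Chosen after seeing the data, Day 3 replicate 3 as the only Day 3 array gave 124 genes higher and 157 lower, with 20 list members higher and 22 lower. Early genes chosen against day 2 replicates 3 and 4 gave 5 that rose further, and against replicates 1 and 2, 35 that fell. With the replicate number as a block, 266 genes were higher and 371 lower, and 21 early genes were lower and 8 higher. The deviations of same-numbered RA and Day 3 arrays correlated at 0.10 and 0.21, and with only 2 such pairs the numbers do not establish pairing. The causes of these shifts were not tested.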
